A study of Mus musculus with 5 samples.

Results

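The genes of the splicing machinery were examined in KL cells (Lin-cKit+Sca1-), the sorted bone marrow population that holds committed myeloid progenitors. Members were chosen by gene symbol alone, as the protein-coding genes whose symbols begin with Snrp, or with Lsm, Sf3a, Sf3b, Srsf or Prpf followed by a number. This gave 58 members of the 52550 genes in the table. Gene expression was measured by QuantSeq, a 3′ RNA sequencing method that reads the end of each polyadenylated transcript. The BcorΔE9-10 libraries (n = 3) came from mice of genotype scl-Cre-ERT +; Bcorfl/y and the BcorWT libraries (n = 2) from mice of genotype scl-Cre-ERT +; Bcorwt/y. By their labels both groups carried the tamoxifen-dependent Cre recombinase, which a Tal1 (Scl) stem cell enhancer drives in haematopoietic stem and progenitor cells, and all mice received 1 mg tamoxifen on each of 5 days at an age of 3 to 6 months. Marrow was taken from male mice 20 weeks later. Cre removes exons 9 and 10 of Bcor, a subunit of a non-canonical Polycomb repressive complex, and shifts its reading frame. The comparison asked which splicing genes differed in transcript level between progenitors with and without the Bcor deletion. The study describes its BcorWT controls as tamoxifen-treated littermates with either the floxed allele or Cre alone, and the labels give these 2 libraries as carrying Cre.

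The spliceosome removes introns from pre-mRNA and is built anew on each intron from small nuclear ribonucleoproteins (snRNPs). Sm proteins form a closed ring on the U1, U2, U4 and U5 RNAs, and the related Lsm2 to Lsm8 proteins form a ring on U6 RNA. SF3a and SF3b belong to the U2 snRNP that binds the branch point, Prpf proteins act largely in the U4/U6.U5 tri-snRNP and the Prp19 complex, and SR proteins bind exons and recruit the machinery to splice sites. Splicing factor genes such as SF3B1, SRSF2, U2AF1 and ZRSR2 are among those most often mutated in human myeloid neoplasms.

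Of the 58 members, 56 had enough counts to be tested, and 7 of them (12.5%) passed a limma adjusted p of 0.05, 5 higher and 2 lower in BcorΔE9-10. Over all 11766 genes tested, 10.1% passed, 6.02% higher and 4.09% lower, so the members were called about as often as genes in general. The genes that rose were Snrpf, Lsm5, Lsm8, Lsm14a and Srsf10, and those that fell were Snrpd3 and Srsf9. Levels of the 3 BcorΔE9-10 libraries did not overlap those of the 2 BcorWT libraries for 31 members (55.4%), 17 higher and 14 lower, against 42.8% of all genes tested, 22.6% higher and 20.3% lower. The median log2 fold change of the members was 0.06 beside 0.00 over all genes, with a range from -0.51 to 3.59. Scaling by total counts alone moved the median of all genes to 0.15, that of the members to 0.20 and those of the Sm and SF3 genes from -0.12 and -0.05 to 0.02 and 0.09. Levels are given below in CPM, counts per 1e+06 of the TMM-scaled library total, which for 3′ reads does not scale with transcript length, and differences as log2FC, the log2 ratio of BcorΔE9-10 to BcorWT, whose standard error (SE) comes from limma.

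**Figure D1:**
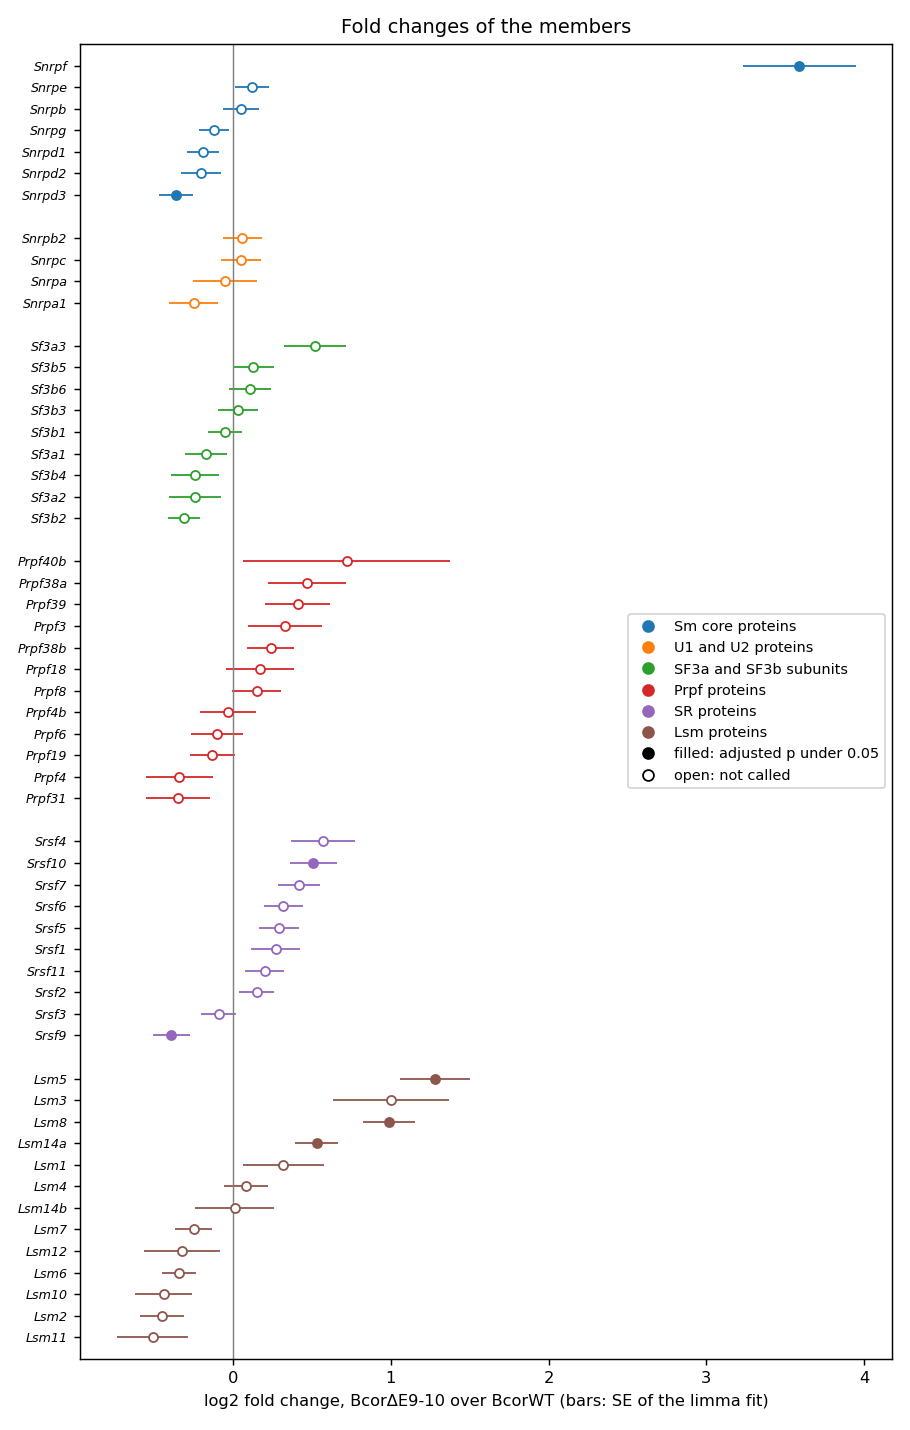
Log2 fold change of BcorΔE9-10 over BcorWT (horizontal axis) for 55 of the 56 members tested, ordered within 6 role groups, with bars for the SE of the limma fit and filled points for an adjusted p under 0.05. Snrpf lies far to the right of the other members at 3.59, and most members lie close to 0.

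The libraries held 5998924 to 8303999 counts. The groups separated along the first principal component, which carried 54.8% of the variance. Kit, the receptor used in the sort, was present in every library, at 53.4, 50.1 and 49.4 CPM in BcorΔE9-10 and 18.2 and 19.6 CPM in BcorWT, while Ly6a, which encodes Sca-1, had at most 8 counts. The 6 myeloid progenitor markers, Kit among them, summed to 6682 to 7955 CPM in BcorΔE9-10 and 7229 to 8018 CPM in BcorWT, which overlapped, with 1 of 6 called higher. Transcripts of 8 mature neutrophil markers summed to 147209 to 171145 CPM in BcorΔE9-10 and 213142 to 224504 CPM in BcorWT, with 4 of 8 called lower, and those of 6 basophil, mast cell and eosinophil markers to 391 to 564 against 974 to 1267 CPM, with 5 of 6 called lower. S100a8 and S100a9 made up most of the neutrophil sum, and levels of Camp, Mmp8, Retnlg and Cxcr2 overlapped between the groups. Camp was at 26916, 25126 and 22737 against 18448 and 23816 CPM. Summed erythroid markers were at 30.1 to 127 against 10.1 to 28.0 CPM, with 1 called higher of 3 tested among 6, and monocyte and dendritic markers at 1074 to 1197 against 1420 to 1421 CPM, with 1 called lower of 4 tested among 5. Most of the monocyte and dendritic sum was Ly6c2, at 967, 1007 and 920 against 1229 and 1247 CPM. Levels of Csf1r, Irf8, Ms4a6c and Siglech overlapped between the groups. Megakaryocyte markers summed to 41.3 to 65.9 against 23.4 to 41.2 CPM with 0 called of 3 tested by limma among 4, T and NK markers to 122 to 165 against 183 to 184 CPM with 0 of 1 tested among 4, and B lymphoid markers to 7.92 to 16.8 against 6.82 to 11.6 CPM with 0 of 3 tested among 5. Nearly all of the T and NK sum was Nkg7, at 164, 122 and 156 against 183 and 184 CPM. Cd3e, Cd3g and Cd5 had at most 4 counts in any BcorΔE9-10 library and 0 in BcorWT. The part of these shifts in the results on splicing genes was not tested, and in sorted bulk cells fewer cells of a type and less RNA per cell cannot be told apart. Whether each library came from 1 mouse or from a pool is not given in the sources used here, so p-values measure only the spread between these samples. Counts of Bcor itself do not read the deleted exons and do not check the labels.

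Among the Sm proteins, which join in a ring of one copy each, 1 gene rose, 1 fell and 5 did not pass the test. Snrpf (SmF; mm10, chr10:93583029-93589706, minus strand) had 829, 1006 and 997 counts in BcorΔE9-10 and 42 and 116 counts in BcorWT. These are 98.0, 164 and 117 CPM against 5.96 and 17.2 CPM, so that the groups were far apart and the BcorWT libraries also differed from each other. The mean was 126 ± 34.1 CPM in BcorΔE9-10 and 11.6 ± 7.94 CPM in BcorWT (SD, n = 3 and 2), a log2FC of 3.59 with an SE of 0.356 (95% interval 2.84 to 4.35, adjusted p = 2.48e-05 by limma), or 12.1-fold. It was 2.82 without BcorWT library 1 and 4.34 without BcorWT library 2, and the gene was called in both. Snrpf made up 6.70% (95% Wilson interval 6.28 to 7.16), 10.0% (9.44 to 10.6) and 7.76% (7.31 to 8.24) of all counts of the Sm ring genes in BcorΔE9-10. In BcorWT its share was 0.392% (0.290 to 0.529) and 1.11% (0.923 to 1.32). The intervals cover counting error only.

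The other 6 Sm ring genes had log2 fold changes from -0.36 to 0.12 with a median of -0.16. Snrpd3 (SmD3; chr10:75517551-75537381, plus strand), which overlaps Gucd1 on the other strand, was at 157, 148 and 150 CPM in BcorΔE9-10 and 192 and 199 CPM in BcorWT, so all 3 libraries lay below both controls. Its mean of 152 ± 4.99 CPM in BcorΔE9-10 and 195 ± 5.16 CPM in BcorWT (SD, n = 3 and 2) gave a log2FC of -0.36 with an SE of 0.109 (adjusted p = 0.0434 by limma). The call was lost when any 1 library was left out, with log2 fold changes from -0.40 to -0.33 and limma adjusted p from 0.0803 (BcorΔE9-10 library 2 left out) to 0.130 (BcorWT library 2 left out). Snrpg, the most abundant Sm gene by CPM, had 431 ± 16 against 468 ± 18.3 CPM (SD, n = 3 and 2) and a log2FC of -0.12 (adjusted p = 0.466 by limma). Snrpd1 followed with 329 ± 22.5 against 375 ± 20.5 CPM and a log2FC of -0.19 (adjusted p = 0.259 by limma), but was called lower after correction for the GC content of transcript ends (-0.36, adjusted p = 0.0360 by limma). Snrpe and Snrpb lay at 0.12 and 0.05 and Snrpd2 at -0.20, none of them called. Snrpn, an imprinted gene known for its expression in neurons, had 0 counts in every library. It shares 589 exonic bases with Gm38393 and 216 with Snurf on the same strand, and reads in shared exons may not have been assigned to it, so the 0 sets no limit on its level.

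**Figure D2:**
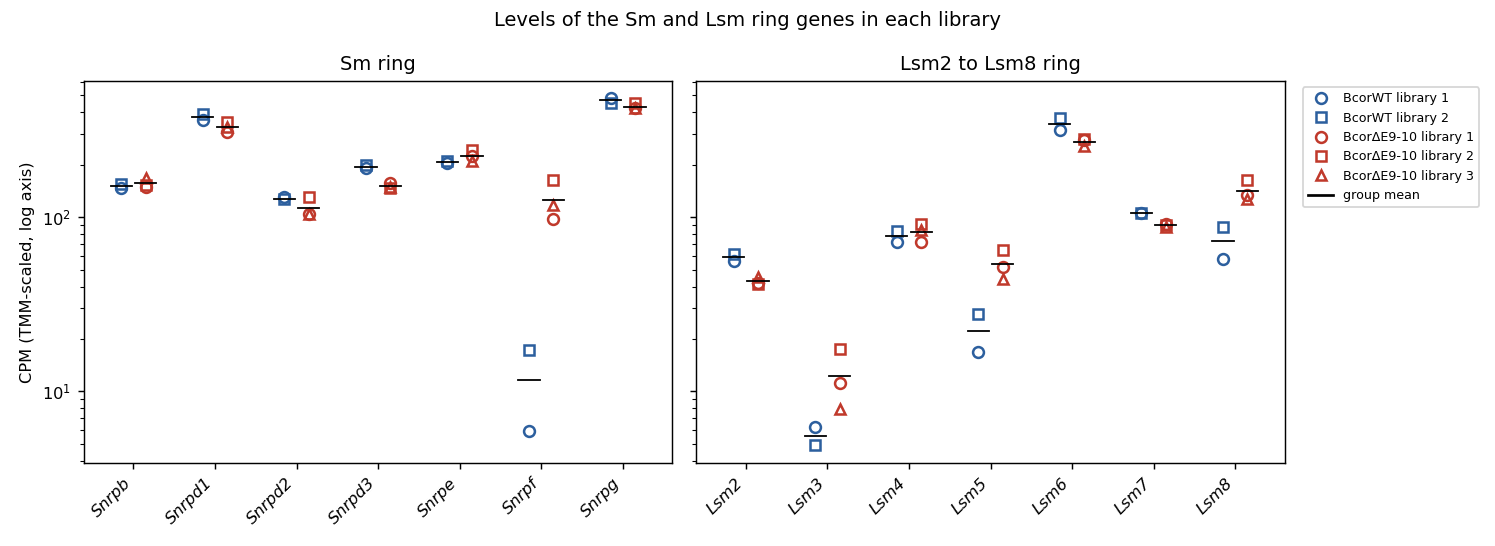
CPM (log axis) of the 7 Sm ring genes and the 7 Lsm2 to Lsm8 genes in each of the 3 BcorΔE9-10 (red) and 2 BcorWT (blue) libraries, with a line for each group mean. Snrpf is the Sm gene whose groups stand apart by more than 10 times in their means, and Lsm3, Lsm5 and Lsm8 are the Lsm ring genes whose 3 BcorΔE9-10 libraries all lie above both BcorWT libraries.

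Snrpf was checked for genes on the other strand. Of its 861 exonic bases, 567 lie under exons of Ccdc38 and 168 under those of 4933408J17Rik, both on the plus strand, which leaves 126 bases (14.6%) under neither. The last exon of Ccdc38, a coiled-coil protein gene, covers the whole annotated 3′ end of Snrpf, where QuantSeq reads fall, and the nearest exonic base under neither gene is 4969 genomic bases (567 exonic bases) from that end. Ccdc38 had 1, 0 and 2 counts in BcorΔE9-10 and 0 and 0 in BcorWT, and 4933408J17Rik had 0, 0 and 2 against 0 and 0. Whether reads were counted by strand, and how reads over exons of more than 1 gene were assigned, is not given in the sources used here. Counted without strand, reads in the shared bases may have been left unassigned or counted for either gene. Of 413 genes tested whose last 300 bases lie wholly under exons of the other strand, 26 were called (6.30%), 16 higher and 10 lower, against 10.5% of the 10665 genes with no such cover. Srsf2 and Srsf4 are the other 2 members with a wholly covered end.

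**Figure D3:**
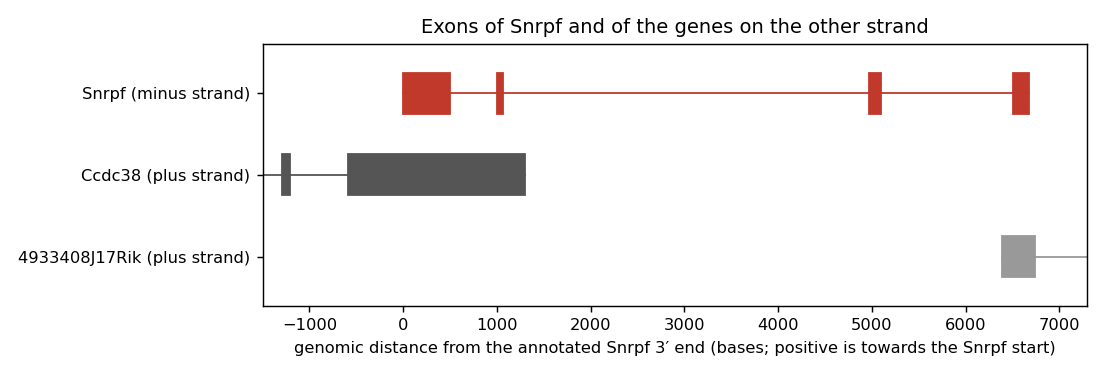
Exons (boxes) of Snrpf on the minus strand and of Ccdc38 and 4933408J17Rik on the plus strand, drawn to scale against genomic distance in bases from the annotated 3′ end of Snrpf. The last Ccdc38 exon spans the Snrpf 3′ exon, and the single Snrpf exon under neither gene begins 4969 bases from the end.

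The Lsm2 to Lsm8 ring binds the tail of U6 RNA. Of its 7 genes, 2 rose and 5 did not pass the test, with a median log2 fold change of 0.08. Lsm5 (chr6:56701063-56704710, minus strand) was at 52.0, 64.8 and 44.1 CPM in BcorΔE9-10 and 16.8 and 27.7 CPM in BcorWT, so that its groups did not overlap. The mean was 53.6 ± 10.5 CPM in BcorΔE9-10 and 22.2 ± 7.74 CPM in BcorWT (SD, n = 3 and 2), a log2FC of 1.28 with an SE of 0.222 (adjusted p = 0.00177 by limma). Pseudogenes (Gm7846 and Gm10074) share 27.3% of the 30-base words in the last 300 bases of Lsm5, so its counts may hold reads of these copies. Lsm8 (chr6:18848579-18855751, plus strand), the subunit that sets the nuclear ring apart from the cytoplasmic one, was at 134, 164 and 128 CPM against 57.7 and 87.7 CPM. All 3 BcorΔE9-10 libraries again lay above both controls, with means of 142 ± 18.9 CPM (SD, n = 3) and 72.7 ± 21.3 CPM (SD, n = 2) and a log2FC of 0.99 with an SE of 0.165 (adjusted p = 0.00132 by limma). Without BcorWT library 1 the log2 fold changes were 0.91 for Lsm5 and 0.68 for Lsm8, and without BcorWT library 2 they were 1.64 and 1.29, with both genes called each time.

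Lsm3 also had levels without overlap, at 11.1, 17.6 and 7.95 against 6.25 and 4.89 CPM, but its log2 fold change of 1.00 (SE 0.368) did not pass (adjusted p = 0.0972 by limma). Lsm3 was called in 6 of the 16 alternative settings (log2FC from 0.75 to 1.35 over all 16), with edgeR (1.11, adjusted p = 0.0450), DESeq2 (1.11, adjusted p = 0.0430), total counts alone, the replicate block with and without GC correction, and without BcorΔE9-10 library 3 (1.27, adjusted p = 0.0462 by limma). It had 33 to 108 counts per library, and 58.0% of its annotated end lies under another gene on the same strand. Lsm6, the most abundant gene of the ring by CPM, went the other way with 272 ± 12.5 against 345 ± 38.9 CPM (SD, n = 3 and 2) and a log2FC of -0.34 (adjusted p = 0.0528 by limma). It was called in 6 of the 16 alternative settings, at -0.38 (adjusted p = 0.0347 by limma) after GC correction and -0.47 (adjusted p = 0.0366 by limma) without BcorWT library 1, and lay at -0.23 (adjusted p = 0.293 by limma) without BcorWT library 2. Lsm2, at -0.45 (adjusted p = 0.0512 by limma), was called in 5 of the 16, with edgeR (-0.45, adjusted p = 0.0470), DESeq2 (-0.47, adjusted p = 0.0433), RLE size factors, the replicate block and equal depth, and in 0 of the 5 fits by limma without 1 library (adjusted p from 0.0831 to 0.179), and Lsm7 and Lsm4 lay at -0.25 and 0.08.

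The 200 bases upstream of the RefSeq start (GRCm38.p6, 5′ to 3′ on the strand of the gene) are shown for Snrpf (chr10:93589659-93589858, minus strand), Lsm5 (chr6:56704700-56704899, minus strand) and Lsm8 (chr6:18848435-18848634, plus strand), since the rise of these 3 genes held under all 16 alternative settings. Capitals mark CCAAT, or ATTGG where it lies on the other strand, and in Lsm8 the letters searched for NRF1, GCATGCGC, here read on the other strand.
Snrpf: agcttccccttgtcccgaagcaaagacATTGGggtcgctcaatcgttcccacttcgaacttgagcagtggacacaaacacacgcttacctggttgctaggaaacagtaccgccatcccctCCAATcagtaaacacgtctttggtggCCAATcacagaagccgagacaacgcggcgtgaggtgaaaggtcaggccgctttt
Lsm5: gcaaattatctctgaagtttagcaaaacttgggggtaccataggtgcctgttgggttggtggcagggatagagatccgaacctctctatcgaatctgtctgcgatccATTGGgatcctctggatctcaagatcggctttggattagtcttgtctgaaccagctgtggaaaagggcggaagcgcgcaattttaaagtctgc
Lsm8: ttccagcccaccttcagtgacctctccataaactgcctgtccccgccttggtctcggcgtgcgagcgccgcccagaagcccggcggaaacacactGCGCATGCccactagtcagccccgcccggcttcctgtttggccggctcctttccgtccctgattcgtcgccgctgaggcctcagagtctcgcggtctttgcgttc
Snrpf held 3 CCAAT matches, Lsm5 held 1 and Lsm8 held the NRF1 letters once. A promoter was found for 49 of the 58 members, and both strands were searched. CCAAT was present in 38.8% of these members (19 of 49), in 4 of the 7 called ones, in 33.6% of the 8300 promoters of genes tested and in 30.1% of all 27025 promoters. The NRF1 letters were present in 8.16% of members, 4.7% of the promoters of genes tested and 2.18% of all, and the ETS letters CCGGAAG in 24.5% of members, in 0 of the 7 called ones, in 14.6% of those of genes tested and in 6.47% of all. CACGTG was in 6.12% of members, 7.87% of those of genes tested and 5.27% of all, and TATAAA in 8.16, 4.23 and 10.6%, so for both the share in members lay between the other 2. A match of such short letters is a description of the sequence and not evidence of binding.

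Other Lsm proteins work outside U6. Lsm1 replaces Lsm8 in the cytoplasmic ring of mRNA decay, Lsm10 and Lsm11 belong to the U7 snRNP that trims histone mRNA, and Lsm14a and Lsm14b are components of processing bodies. Lsm14a (chr7:34344646-34393315, minus strand) was at 82.3, 76.4 and 82.3 CPM in BcorΔE9-10 and 51.5 and 60.5 CPM in BcorWT. The groups did not overlap, and means of 80.3 ± 3.41 CPM (SD, n = 3) and 56 ± 6.30 CPM (SD, n = 2) gave a log2FC of 0.53 with an SE of 0.136 (adjusted p = 0.0211 by limma). It was not called without BcorΔE9-10 library 1 (0.51, adjusted p = 0.0637 by limma), BcorΔE9-10 library 3 (0.50, adjusted p = 0.0793 by limma) or BcorWT library 1 (0.41, adjusted p = 0.184 by limma). Its paralogue Lsm14b had a log2 fold change of 0.01 at 11.8 ± 2.66 against 11.8 ± 0.663 CPM. The U7 genes Lsm10 and Lsm11 lay at -0.44 and -0.51, below both controls in every BcorΔE9-10 library, with limma adjusted p of 0.135 and 0.163. Lsm1 (0.32) and Lsm12 (-0.32) were not called.

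None of the 4 remaining Snrp genes, which encode specific proteins of the U1 snRNP (Snrpa, Snrpc) and the U2 snRNP (Snrpa1, Snrpb2), passed the limma test, and none had an unadjusted p under 0.05. Snrpb2 was at 152 ± 12.1 against 145 ± 17.7 CPM (SD, n = 3 and 2) with a log2FC of 0.06, and Snrpc had a log2FC of 0.05 (95% interval -0.22 to 0.32). No SF3a or SF3b gene passed either, with a median of -0.05 over 9 genes, 2 of them with an unadjusted p under 0.05. This median lay at -0.16 after GC correction, -0.13 without BcorWT library 1 and 0.02 without BcorWT library 2. Sf3b1, the U2 subunit that contacts the branch point, was at 202, 197 and 193 CPM in BcorΔE9-10 and 195 and 214 CPM in BcorWT. Its levels overlapped, and the log2 fold change was -0.05 (95% interval -0.28 to 0.18, adjusted p = 0.814 by limma). Sf3b2, the most abundant of these genes by CPM, had 356, 318 and 354 against 440 and 413 CPM. This log2 fold change of -0.31 (SE 0.102) was not called with limma (adjusted p = 0.0618) but was with DESeq2 (-0.33, adjusted p = 0.0316) and with RLE size factors (-0.33, adjusted p = 0.0490 by limma), and the largest of the group was Sf3a3 at 0.52 (adjusted p = 0.111 by limma), called with total counts alone (0.66).

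The 13 Prpf genes had a median log2 fold change of 0.17, and 0 passed the limma test, with 1 at an unadjusted p under 0.05. That median was -0.01 after GC correction with 6 of 13 positive, 0.01 without BcorWT library 1 and 0.32 with total counts alone. Prpf8, the large U5 protein at the catalytic centre, was at 56.4, 42.6 and 46.0 CPM in BcorΔE9-10 and 42.7 and 44.6 CPM in BcorWT, with a log2 fold change of 0.15 (95% interval -0.19 to 0.48, adjusted p = 0.604 by limma). Prpf19, the ubiquitin ligase that names the Prp19 complex, had 53.5 ± 2.73 against 58.9 ± 7.25 CPM and a log2FC of -0.13 (adjusted p = 0.594 by limma). The U4/U6 genes Prpf31 and Prpf4 lay lowest at -0.35 and -0.34 and their partner Prpf3 at 0.33. Prpf40b lay highest at 0.72 with an SE of 0.655 on 5 to 22 counts per library.

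Among the SR proteins, 1 gene rose, 1 fell and 8 did not pass, and 8 of the 10 tested had positive log2 fold changes with a median of 0.28. This median moved to 0.17 without BcorWT library 1, 0.33 without BcorWT library 2 and 0.42 with total counts alone. Srsf10 (chr4:135855747-135869908, plus strand), a splicing regulator that acts as a repressor when dephosphorylated, was at 69.6, 88.3 and 72.3 CPM in BcorΔE9-10 and 48.6 and 58.7 CPM in BcorWT. The groups did not overlap, and the log2 fold change was 0.51 (SE 0.151, adjusted p = 0.0426 by limma). The call was lost without BcorΔE9-10 library 2 (0.41, adjusted p = 0.126 by limma), BcorΔE9-10 library 3 (0.53, adjusted p = 0.0846 by limma) or BcorWT library 1 (0.36, adjusted p = 0.283 by limma). Srsf9 (chr5:115327177-115333080, plus strand) was at 124, 118 and 109 CPM against 144 and 162 CPM. All BcorΔE9-10 libraries lay below both controls, with a log2FC of -0.39 with an SE of 0.119 (adjusted p = 0.0485 by limma), but the call was lost when any 1 library was left out, with log2 fold changes from -0.48 to -0.30 and limma adjusted p from 0.0554 (BcorWT library 1 left out) to 0.202 (BcorWT library 2 left out).

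Srsf2, whose protein binds exonic enhancers, was at 250, 287 and 282 CPM in BcorΔE9-10 and 231 and 260 CPM in BcorWT. These levels overlapped, with a log2 fold change of 0.15 (95% interval -0.09 to 0.39, adjusted p = 0.424 by limma). Its annotated end lies wholly under Mettl23 on the other strand. The 2 most abundant SR genes by CPM were Srsf3, at 377 ± 36.8 against 399 ± 35.0 CPM (SD, n = 3 and 2) and a log2 fold change of -0.09, and Srsf5, at 312 ± 28.2 against 257 ± 48.8 CPM and 0.29, neither of them called (adjusted p = 0.661 and 0.156 by limma). Srsf5 was called with total counts alone (0.44, adjusted p = 0.0264 by limma) and without BcorWT library 1 (0.48, adjusted p = 0.0456 by limma), while it lay at 0.10 without BcorWT library 2 and at -0.09 after GC correction. Srsf7 (0.42, adjusted p = 0.0528 by limma) and Srsf4 (0.57, adjusted p = 0.0869 by limma) were nearer the threshold, and the end of Srsf4 lies under Gm12992 on the other strand. They were called in 5 and 4 of the 16 alternative settings, at 0.65 and 0.95 without BcorWT library 2, and lay at 0.19 and 0.17 without BcorWT library 1. Srsf12 had 1 count in all libraries together and was not tested. The summed level of the SR genes was 1854, 1951 and 1865 CPM in BcorΔE9-10 and 1591 and 1820 CPM in BcorWT. The same sum over all 58 members was 5856, 6147 and 5860 against 5572 and 6053 CPM, so the totals overlapped on the TMM scale. As a share of all counts, without TMM, it was 0.597, 0.628 and 0.631% against 0.518 and 0.576%, with every BcorΔE9-10 library above both controls, so the overlap depends on the scaling.

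Transcript ends of low GC content went with higher fold changes in these libraries. Across genes, Spearman's rho between log2 fold change and the GC content of the last 300 bases was -0.27 over 11759 genes, -0.34 over the 56 members and -0.30 over the 55 members without Snrpf. These genes share the same 5 libraries and are not independent replicates. The ends of the 5 members that rose held 26.0% (Lsm8), 26.3% (Snrpf), 30% (Lsm5), 35.0% (Srsf10) and 36.7% (Lsm14a) GC, and those of Srsf9 and Snrpd3 39.0% and 43.0%. All 5 rises were among the 28 members in the class of lowest GC, up to 39.0%, where 407 of 3997 genes tested rose and 80 fell. No member was called among the 14 in the class of highest GC, over 47.0%, where 118 of 3894 genes rose and 239 fell. With a trend on GC content removed from each library, Snrpf, Lsm5 and Lsm8 were still called, at log2 fold changes of 3.21, 1.00 and 0.60. Lsm14a (0.41, adjusted p = 0.0658 by limma) and Srsf10 (0.35, adjusted p = 0.159 by limma) were not. Of the 2 that fell, Srsf9 was still called (-0.44, adjusted p = 0.0266 by limma) and Snrpd3 was not (-0.35, adjusted p = 0.0537 by limma), and the median of the SR genes moved from 0.28 to 0.02 with 5 of 10 positive. The part of base composition in these differences was not tested beyond this correction.

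**Figure D4:**
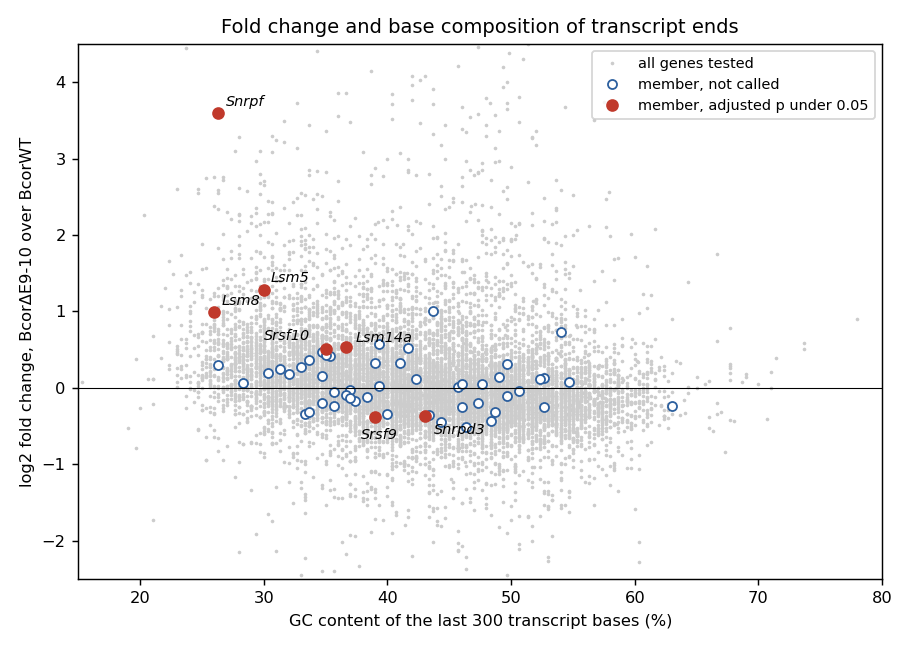
Log2 fold change of BcorΔE9-10 over BcorWT against the GC content in percent of the last 300 transcript bases, for all genes tested (grey) and the members (circles, filled red where called). The 5 members that rose lie at 26.0 to 36.7% GC, in the part of the plot where more genes lie above 0 than below, and 35 genes lie outside the plotted range.

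Other genes of the splicing pathway were described from a list of 94, of which 93 were tested. It holds further snRNP proteins, factors of the 3′ splice site, helicases, Prp19 complex and catalytic step proteins, the exon junction complex, SR kinases and hnRNP proteins. Of these, 9 rose and 4 fell (14.0% against 10.1% of all genes), with a median log2 fold change of -0.01. This balance depended on the processing. After GC correction 5 were called higher and 9 lower, with GC correction and replicate block 6 and 11, and with total counts alone 16 and 1. The highest rise was that of Magohb, an exon junction subunit, at 17.1, 27.4 and 23.8 CPM in BcorΔE9-10 and 6.67 and 11 CPM in BcorWT, a log2FC of 1.36 with an SE of 0.292 (adjusted p = 0.00710 by limma). It was not called without BcorWT library 1 (1.00, adjusted p = 0.0840 by limma). Its near-identical partner Magoh lay at 0.09. Aqr, a helicase that binds introns, had 21.9, 32.1 and 25.9 against 10.9 and 9.63 CPM and rose by 1.33 on the log2 scale (adjusted p = 0.00254 by limma).

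Cdc40, a step 2 factor, rose by 0.87 on the log2 scale (adjusted p = 0.0285 by limma), Rbm17, which binds at the 3′ splice site, by 0.80 (adjusted p = 0.00113 by limma), and Bcas2 of the Prp19 complex by 0.67 (adjusted p = 0.0129 by limma). Snrnp70, the U1 70K protein, rose by 0.61 (adjusted p = 0.0118 by limma), from 119 and 170 CPM in BcorWT to 202, 239 and 211 CPM. Usp39, a tri-snRNP protein, and Eif4a3, the helicase core of the exon junction complex, fell by 0.58 and 0.56 on the log2 scale (adjusted p = 0.0399 by limma and 0.00245). In the annotated ends of Bcas2 and Eif4a3, 47.2% and 35.4% of the 30-base words occur in other genes, so their counts may hold other reads. The calls of Cdc40 (0.55, adjusted p = 0.284 by limma), Bcas2 (0.66, adjusted p = 0.0598 by limma), Snrnp70 (0.35, adjusted p = 0.187 by limma) and Usp39 (-0.67, adjusted p = 0.0548 by limma) were lost without BcorWT library 1. Leaving out another library also cost Cdc40 its call without BcorΔE9-10 library 2 (0.76) or 3 (0.88), Bcas2 without BcorΔE9-10 library 1 (0.58), and Usp39 without BcorΔE9-10 library 2 (-0.46) or 3 (-0.59) or BcorWT library 2 (-0.48). After GC correction Cdc40 was not called either (0.61, adjusted p = 0.116 by limma), and Usp39 lost its call with total counts alone (-0.43) and with sample quality weights (-0.55). U2af1, the small subunit that reads the 3′ splice site, was at 213, 219 and 225 against 266 and 284 CPM, a log2FC of -0.33 (adjusted p = 0.0583 by limma), and 52.0% of the 30-base words in its annotated end occur in other genes. It was called lower with DESeq2 (-0.34, adjusted p = 0.0268) and with RLE size factors (-0.34, adjusted p = 0.0470 by limma). Zrsr2, its counterpart for minor introns, was at 39.7, 28.9 and 33.7 against 24.6 and 22.4 CPM, a log2FC of 0.54 (adjusted p = 0.0763 by limma), and was called with total counts alone (0.68, adjusted p = 0.0256 by limma).

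The 7 called members were followed through 16 other ways of fitting the data. In the fits with a replicate block, the genotype difference came from libraries 1 and 2 of each group. Snrpf, Lsm5 and Lsm8 were called in 16 of 16, with log2 fold changes from 2.82 to 4.34, from 0.91 to 1.64 and from 0.60 to 1.29. Lsm14a was called in 11 (0.40 to 0.67) and Srsf10 in 10 (0.35 to 0.65). Snrpd3 and Srsf9 were called in 5 each, with log2 fold changes from -0.40 to -0.22 and from -0.48 to -0.24.

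**Figure D5:**
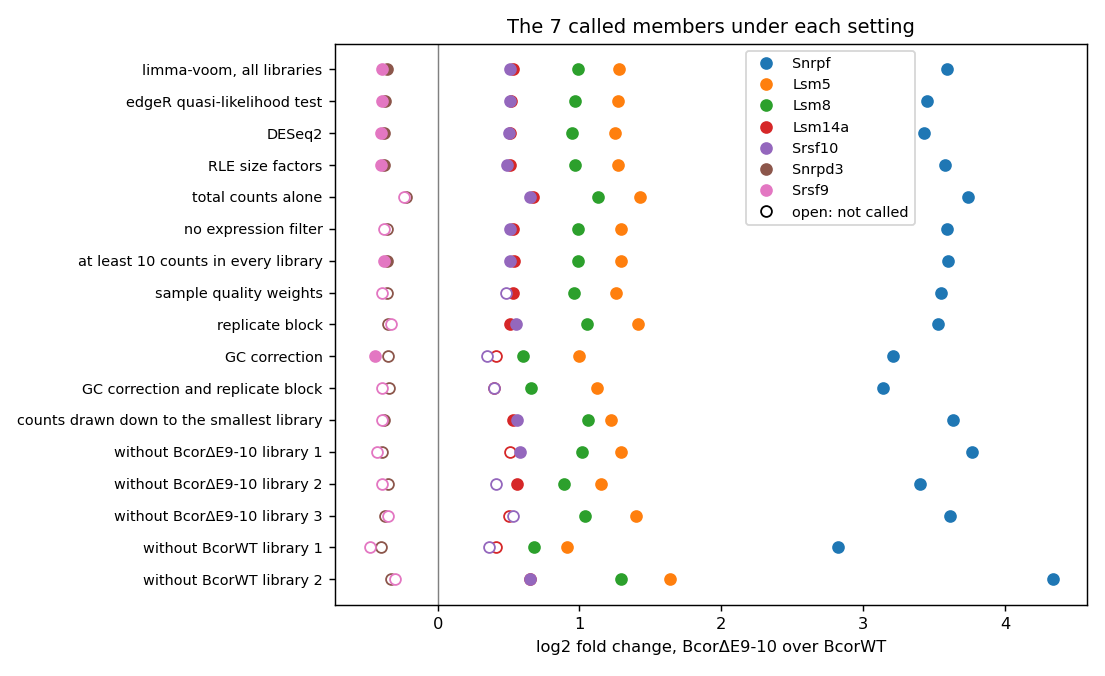
Log2 fold change (horizontal axis) of the 7 called members under limma-voom with all libraries and under 16 other settings, filled where the gene was called and open where not. The points of Snrpf, Lsm5 and Lsm8 are filled in every row, while those of Srsf9 and Snrpd3 are mostly open.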

How the data were processed

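The deposited table holds the unnormalised whole-number counts that the authors obtained for each gene from 75 bp single-end QuantSeq reads of 5 libraries. Per the labels and the methods of the study, reads were demultiplexed with bcl2fastq (version 2.17.1.14), trimmed with cutadapt (version 1.7 in the submitters' notes), aligned to mm10 with HISAT2 and counted with featureCounts of Subread (version 1.5.0-p3). The options for strand and for reads with several alignments are not given in the sources used here. Symbols came from GENCODE M21, which named 52403 of the 52550 genes.

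Genes were filtered with edgeR's filterByExpr (version 4.0.16) at a count of 10 and a total of 15, scaled by TMM and tested with limma-voom (version 3.58.1, R 4.3.3) by genotype, two-sided, with Benjamini-Hochberg adjustment over the 11766 genes tested and calls at 0.05. GC content, overlaps and shared 30-base words were computed from the annotated transcript ends (last 300 bases). In the GC correction a lowess trend (span 0.3) was removed from each library. The procedure was tested on simulated data. Within groups, libraries differed beyond sampling error (chi-square of 6.03 to 11.7 per gene, with values near 1 from sampling alone), and all 5 were treated as separate.

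Named genes were Snrpf and the genes overlapping it, every called member, Sf3b1, Srsf2 and Prpf8, the 2 members of highest mean CPM in each role group, and U2af1, Zrsr2 and the 8 largest calls of the other splicing genes. 1 gene that this rule names is not reported here. Further members with values in the text were named after their values were seen. The members, lists and tests were chosen with earlier results of these data known. Alternatives covered edgeR's quasi-likelihood test, DESeq2 (version 1.42.0), scaling, filters, weights, a replicate block, GC correction, overlapping or copied members left out, equal depth and each library left out. Depth limits precision for members with few counts.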

Additional observations from a re-analysis of the deposited data

How the results depend on the processing

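The rises of Snrpf, Lsm5 and Lsm8 kept direction and call under every alternative that refitted them. The members called higher numbered 5 of 56 in the main fit and 12 with scaling by total counts alone, 8 with the replicate block and 3 after GC correction. With members that overlap another gene left out, 3 of the 35 that remained were called higher. That step removed members from the count and refitted nothing. The members called lower numbered 2 in the main fit, 5 with DESeq2, 5 with RLE size factors, 0 with total counts alone, 1 without an expression filter, 0 with sample quality weights, 1 with the replicate block, 1 with GC correction and block together, and 1 of the remaining 35 with overlapping members left out. With 1 library left out, 4 to 9 members were higher (9 without BcorWT library 2) and 0 to 1 lower (1 without BcorWT library 1). Genes called over the whole table numbered 558 (without BcorWT library 1) to 1200 (without BcorWT library 2), with 774 and 723 without BcorΔE9-10 libraries 2 and 3, and other splicing genes called numbered 4 to 15, with 8, 7 and 4 without BcorΔE9-10 library 2, BcorΔE9-10 library 3 and BcorWT library 1. Total counts alone moved the median of all genes from 0.00 to 0.15 and the calls from 708 higher and 481 lower to 1210 and 197, and gave a members' median of 0.20. That median was -0.02 after GC correction, -0.06 with GC correction and block, and -0.01 to 0.12 with 1 library left out.

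Among all members tested, 7 turned direction with total counts alone, 8 after GC correction, 7 with the block added, 4 with the block alone, 1 each with DESeq2 and RLE size factors, and 1 to 8 with 1 library left out, all of them uncalled in the main fit. Among the members of the naming rule the turns were those of Sf3b1 (0.09 with total counts alone, leave-outs -0.13 to 0.02, the latter without BcorWT library 2), Srsf2 (-0.02 after GC correction, -0.04 with the block added), Snrpg (0.02), Prpf19 (0.01) and Srsf3 (0.06) with total counts alone, Srsf3 (leave-outs -0.18 to 0.01, the latter without BcorWT library 2), Snrpb2 (-0.27 after GC correction, -0.23 with the block added, leave-outs -0.07 to 0.19, the former without BcorWT library 1), Snrpc (-0.01 with the block, leave-outs -0.02 to 0.11, below 0 without BcorΔE9-10 library 3 and, at -0.01, without BcorWT library 1) and Srsf5 (-0.09 after GC correction, -0.06 with the block added). The causes were not tested.

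The replicate numbers are shared between groups, but the deviations of libraries with the same number correlated at 0.07 and 0.0756 over 2 pairs and no source says that a number marks a shared litter or day. With the number as a block, 1454 genes were called in place of 1189, 8 members higher and 1 lower. Number 3 occurs only in BcorΔE9-10, so in the block fits that library did not enter the genotype difference. These fits compared libraries 1 and 2 of each group, and their adjusted p-values rest on little residual information. Over the 29 genes of the naming rule other than Snrpf and all alternatives, 383 of 464 comparisons kept direction and call, 48 lost the call, 17 gained one and 16 turned. Lsm3, Prpf40b and other members with few counts per library could be called only at large differences.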
